A study of Mus musculus with 6 samples.

Results

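The genes described here encode the killing proteins of the cytotoxic granule: 8 granzymes (Gzma, Gzmb, Gzmc, Gzmd, Gzme, Gzmf, Gzmk and Gzmm), perforin (Prf1) and the granule membrane protein Nkg7. They were chosen by gene symbol from the count table, in which 10 of the 54532 genes carry 1 of these names, and the rule itself used no measured value. By the methods of the study, the RNA came from mouse spleen CD8T cells that received anti-CD3/CD28 beads. These cells then shared a coculture of 24 hr with peritoneal macrophages, which had first been given IFN-γ at 10 ng/mL for 12 hr. In the control group (3 libraries) the macrophages received no DB2313, and in the DB2313 group (3 libraries) they were treated with it at 14 nM. DB2313 is a small molecule inhibitor of Spi1 (PU.1), a transcription factor of myeloid cells. The labels name the T cells as primary T cells and the cocultured cells as DC cells, whereas the methods of the study describe CD8T cells and macrophages. The sources used here do not say whether the libraries of a group came from separate cultures, so p-values measure only the spread between these samples.

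Cytotoxic T cells and natural killer (NK) cells store granzymes, a family of serine proteases, together with perforin in secretory lysosomes. On contact with a target cell the granules fuse with the membrane, perforin opens pores in the target, and granzymes that enter cleave proteins such as caspases and gasdermins, which leads to death of the cell. Nkg7 sits in the granule membrane and takes part in granule release. In resting CD8T cells Gzmb and Prf1 are low, and both are induced after stimulation through the T cell receptor and by IL-2.

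The members lie on 4 chromosomes in GRCm38, the build whose coordinates the table gives for all 10. Gzmb (ENSMUSG00000015437, chr14:56258838-56262260), Gzmc (ENSMUSG00000079186, chr14:56231441-56234656), Gzmf, Gzmd and Gzme stand on the minus strand within 144.6 kb of chromosome 14, and Gzmb and Gzmc are the last pair at 1 end, 24.2 kb apart. Gzma and Gzmk are near each other on chromosome 13, Gzmm and Prf1 (ENSMUSG00000037202, chr10:61297833-61304680) are on chromosome 10, and Nkg7 (ENSMUSG00000004612, chr7:43437073-43438249) is on chromosome 7. The transcripts of Gzmd and Gzme are 94.8% identical, and those of Gzmb and Gzmc 77.8%. Of all stretches of 50 bases in the Gzmc transcript, 4.14% also occur in Gzmd, Gzme or Gzmg, against 21.9% of the Gzmd and 20.6% of the Gzme stretches in their relatives. No such stretch of Gzma, Gzmb, Gzmk, Gzmm, Prf1 or Nkg7 was shared with another member.

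The upstream sequences of the 4 genes that passed the test are shown, since Gzmb and Gzmc changed in opposite directions on the main scale (values below, with a scaling on which Gzmb turned) although only 24.2 kb separate them. They are from RefSeq on GRCm38.p6, which held all 10 members, written 5′ to 3′ in the direction of the gene and ending at the RefSeq start or, for Prf1 and Nkg7, before the deposited gene model. Capitals mark matches on either strand to TGTGGT (a Runx motif), TGACGT (the core of a cAMP response element), GGTGTGA (a T-box motif) and TGANTCA (an AP-1 motif).
Gzmb upstream (chr14:56262335-56262584, minus strand): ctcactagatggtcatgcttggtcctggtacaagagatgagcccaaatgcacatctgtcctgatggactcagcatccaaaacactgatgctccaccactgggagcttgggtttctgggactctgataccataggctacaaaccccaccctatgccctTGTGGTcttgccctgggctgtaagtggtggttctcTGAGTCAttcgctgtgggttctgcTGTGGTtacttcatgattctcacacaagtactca
Gzmc upstream (chr14:56234658-56234907, minus strand): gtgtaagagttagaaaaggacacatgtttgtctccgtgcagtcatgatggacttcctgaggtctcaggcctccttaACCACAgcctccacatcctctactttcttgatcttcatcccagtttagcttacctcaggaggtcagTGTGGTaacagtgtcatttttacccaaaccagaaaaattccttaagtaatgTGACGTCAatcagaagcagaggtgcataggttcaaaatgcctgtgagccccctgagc
Prf1 upstream (chr10:61297586-61297832, plus strand): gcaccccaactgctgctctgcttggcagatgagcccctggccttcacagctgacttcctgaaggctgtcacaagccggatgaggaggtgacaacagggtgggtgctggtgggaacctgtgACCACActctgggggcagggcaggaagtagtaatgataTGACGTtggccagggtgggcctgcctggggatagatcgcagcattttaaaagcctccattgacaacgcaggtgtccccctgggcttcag
Nkg7 upstream (chr7:43436888-43437072, plus strand): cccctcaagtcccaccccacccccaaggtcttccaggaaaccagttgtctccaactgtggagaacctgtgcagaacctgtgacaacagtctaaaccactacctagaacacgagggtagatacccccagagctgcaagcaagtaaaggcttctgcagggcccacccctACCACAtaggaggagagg
Over the 250 bases before each start, TGTGGT was found in 9 of the 10 members and in 14.05% of the 32851 promoters of the table. Gzmc, Gzmd, Gzme and Gzmf each held 2 of these matches at similar places, such as -174 and -108 in Gzmc and -174 and -112 in Gzmd. These genes are similar copies, so their matches are not separate cases. TGACGT was found in Gzmc, Gzmf and Prf1, against 6.47% of all promoters, and in Gzmc and Gzmf it formed the palindrome that matches both strands in overlap. TGANTCA was found in Gzmb, at -58 from its start, against 6.75% of all promoters. GGTGTGA was found in Gzmk and Nkg7, against 3.33% of all promoters, and the Nkg7 match lies at -13, outside the bases printed. For Gzmk the bases searched (chr13:113180966-113181215, minus strand) lie inside the deposited gene model (chr13:113171608-113225908), whose own start is farther upstream. These matches are descriptions of the letters and were not tested as binding sites.

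The stretch just before the start is nearly the same in Gzmc and 3 other granzymes of the cluster that had almost no counts. The 60 bases with the highest identity are shown next, with capitals where a base differs from that of Gzmc. Gzmd and Gzme differ from Gzmc at 3 bases each and Gzmf at 2.
Gzmc window (chr14:56234668-56234727, minus strand): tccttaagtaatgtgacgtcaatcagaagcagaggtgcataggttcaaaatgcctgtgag
Gzmd window (chr14:56132608-56132667, minus strand): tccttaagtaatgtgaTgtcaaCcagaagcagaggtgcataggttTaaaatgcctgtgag
Gzme window (chr14:56120641-56120700, minus strand): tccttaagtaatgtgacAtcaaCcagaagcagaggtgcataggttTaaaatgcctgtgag
Gzmf window (chr14:56211443-56211502, minus strand): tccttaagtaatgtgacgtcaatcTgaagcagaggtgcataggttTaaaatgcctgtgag

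The libraries held between 16611975 and 18596217 counts on genes. Tests were made with edgeR's quasi-likelihood test on the 14883 genes that passed its filter on low counts, after TMM scaling, which sets the libraries so that most genes do not change. Levels are given as CPM (counts per 1000000 counts of the library's scaled total), and a call means a Benjamini-Hochberg adjusted p below 0.05 over all tested genes. At this rule 20.8% of all tested genes were higher in the DB2313 group and 24.6% were lower, with a median log2 fold change of 0.02. Of the 10 members 7 passed the filter, and 3 of them (Gzmb, Prf1 and Nkg7) were called higher, 1 (Gzmc) lower and 3 (Gzma, Gzmk and Gzmm) neither. These 3 higher calls depended on the scaling, as given below with the T cell markers. With an absolute log2 fold change over 1 also required, a rule that called 1.37% of all genes higher and 5.3% lower, only Gzmc was left among the members, as lower. In 5 of the 7 tested members every DB2313 library was above every control library (25.6% of all tested genes), and in 1 every DB2313 library was below every control library (27.5%).

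Gzmb, the protease that cleaves after aspartate and activates caspases, was the most abundant member per length in both groups. It had 85.5, 88.2 and 90.7 CPM in the control libraries and 115.5, 116.0 and 111.0 CPM in the DB2313 libraries. The groups did not overlap, and each was tight around its mean. The means were 88.1 ± 2.63 and 114.2 ± 2.74 CPM (SD, n = 3 each), a log2 fold change of 0.37 ± 0.0423 (SE) or 1.30-fold, with an adjusted p of 9.99e-08 in edgeR.

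Nkg7 had the largest rise among the members. Its level was 39.0, 42.6 and 42.6 CPM in the control group and 63.4, 73.4 and 65.8 CPM in the DB2313 group. All DB2313 libraries were above all control libraries, and the spread was wider in the DB2313 group, where library 2 was highest. The log2 fold change was 0.71 ± 0.0640 (SE), or 1.63-fold, with an adjusted p of 2.65e-09 in edgeR.

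Prf1, the pore-forming protein without which granzymes do not reach the target's cytosol, was measured at a lower depth. The control libraries held 11.7, 10.7 and 10.6 CPM and the DB2313 libraries 14.5, 16.2 and 16.4 CPM. The groups did not overlap. Prf1 rose by a log2 fold change of 0.51 ± 0.105 (SE), or 1.42-fold, with an adjusted p of 3.27e-04 in edgeR.

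Gzmc, a granzyme found in strongly stimulated cytotoxic cells, went the other way. It had 194, 168 and 148 counts in the control libraries and 73, 98 and 66 in the DB2313 libraries, which is 10.8, 9.78 and 9.04 CPM against 3.95, 5.74 and 3.59 CPM. Every DB2313 library was below every control library. Gzmc fell by 1.16 ± 0.164 (SE) on the log2 scale, with an adjusted p of 2.94e-06 in edgeR, and its mean was 9.86 ± 0.858 CPM in control and 4.43 ± 1.15 CPM in DB2313 libraries (SD, n = 3 each). When Gzmc, Gzmd, Gzme, Gzmf, Gzmg and Gzmn were summed into 1 row, since reads may be split between such copies, the log2 fold change was -1.15 (adjusted p of 2.66e-06 in edgeR).

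**Figure D1:**
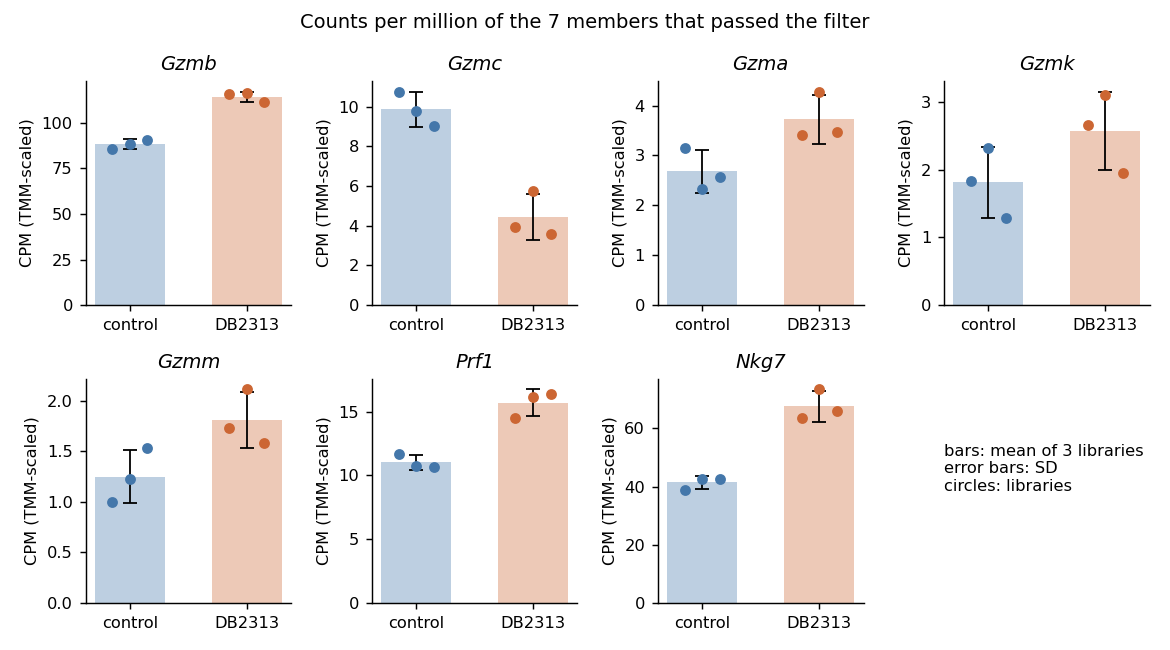
Level of the 7 tested members in CPM after TMM scaling (vertical axis, from 0), with bars for the mean of 3 libraries per group, error bars for the SD and a circle per library. Gzmb, Prf1 and Nkg7 were called higher in the DB2313 group and Gzmc lower, while scaling to T cell markers turned Gzmb to a lower call and left Prf1 and Nkg7 without a call.

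The other tested granzymes were expressed at low levels and did not pass the test. Gzma, a protease that cleaves after basic residues, had 57, 40 and 42 counts in the control group and 63, 73 and 64 in the DB2313 group. After scaling the Gzma groups did not overlap (2.33 to 3.16 against 3.41 to 4.28 CPM), yet the log2 fold change of 0.47 had an adjusted p of 0.0882 in edgeR, with a 95% interval from 0.01 to 0.92 before adjustment. It passed the threshold only with library size scaling (adjusted p of 0.0356) and upper quartile scaling (adjusted p of 0.0485).

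Gzmk, which has a substrate preference like that of Gzma and marks less differentiated effector cells, had 33, 40 and 21 counts against 49, 53 and 36, and the groups overlapped. Its log2 fold change was 0.50 with an interval from -0.09 to 1.08 and an adjusted p of 0.161 in edgeR, and it was 0.31 without control library 3. The Gzmk gene overlaps Esm1 on the opposite strand over 8440 bases, and Esm1 itself had at most 6 counts in a library. Gzmm, a granzyme with a preference for methionine or leucine, had 18, 21 and 25 counts against 32, 36 and 29. The Gzmm groups did not overlap in CPM, but the log2 fold change of 0.53 had an interval from -0.13 to 1.19 and an adjusted p of 0.182 in edgeR. For these 3 genes a fold as large as that of Prf1 lies inside the interval, so the data at this depth show neither a rise of that size nor its absence.

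Gzmd, Gzme and Gzmf were too rare for a test. Gzmd had 2 counts in control library 3 and 0 in every other library. Gzme had 0, 2 and 1 counts in the control group and 1, 1 and 0 in the DB2313 group, and Gzmf had 3 counts in control library 2, 2 in DB2313 library 3 and 0 elsewhere. In a library with a count of 0, as many as 3 counts could have been missed, which is 1.81e-05% of the smallest library. This limit reflects counting error alone, because the reads carried no molecular identifiers that would tell copies of 1 molecule apart. Levels of these genes were therefore at the limit of detection in both groups.

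Compared per length, as RPKM (CPM divided by the gene length that the table lists, in kilobases), the members fell into steps. In the control group the order was Gzmb (61.4 ± 1.83 RPKM), Nkg7 (45.3 ± 2.33), Gzmc (11.0 ± 0.960), Prf1 (4.26 ± 0.230), Gzma (2.67 ± 0.426), Gzmk (1.31 ± 0.376) and Gzmm (0.848 ± 0.181; SD, n = 3 each). Neighbours among these 7 did not overlap between libraries except Gzmk and Gzmm. In the DB2313 group Gzmb (79.5 ± 1.91 RPKM) and Nkg7 (73.9 ± 5.69 RPKM) overlapped. There Prf1 (6.08 ± 0.402 RPKM) stood before Gzmc (4.95 ± 1.29 RPKM), but the libraries of Prf1 and Gzmc overlapped, as did those of Gzmc and Gzma and of Gzmk and Gzmm. Gzmd, Gzme and Gzmf were below 0.1 RPKM on average in both groups.

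**Figure D2:**
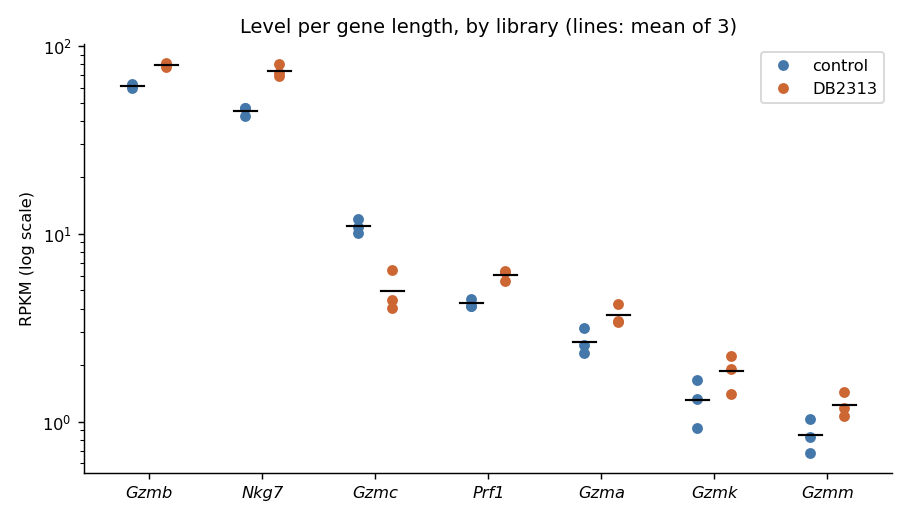
Level per gene length of the 7 tested members in RPKM (vertical axis, log scale), with a circle per library and a line at the mean of each group of 3. In the control group Gzmc (11.0 RPKM) stood above Prf1 (4.26 RPKM), and in the DB2313 group the libraries of both overlapped.

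The members together took 0.0151% ± 0.000241 of all counts in control libraries and 0.0217% ± 0.000884 in DB2313 libraries (SD, n = 3 each), with no overlap. Per 1000 counts of the 20 T cell markers described below, the direction turned, from 48.5 to 50.3 counts in the control to 43.3 to 46.5 in the DB2313 libraries, again with no overlap. Gzmb gave 55.9% to 57.2% of the members' counts in the control libraries and 52.5% to 56.3% in the DB2313 libraries. Gzmc gave 5.70% to 7.03% in the control and 1.76% to 2.60% in the DB2313 libraries. Nkg7 gave 25.5% to 27.1% and 30.9% to 33.2%. The makeup of the granule transcripts thus differed between the groups in the shares of Gzmc and Nkg7, which did not overlap, and less in that of Gzmb, which did.

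Ratios between members do not depend on how the libraries are scaled. Per 100 counts of Gzmb there were 12.6, 11.1 and 9.97 counts of Gzmc in the control and 3.42, 4.95 and 3.23 in the DB2313 libraries. Per 100 counts of Gzmb there were 45.6, 48.4 and 47.0 counts of Nkg7 in the control and 54.9, 63.2 and 59.3 in the DB2313 libraries. Both ratios separated the groups, Gzmc downward and Nkg7 upward relative to Gzmb. The two-sided exact permutation p was 0.1 for each, the smallest that 3 against 3 allows, and 0.25 after Benjamini-Hochberg adjustment over 5 ratios. The ratios of Prf1 to Gzmb (exact permutation p of 0.2), Gzma to Gzmb (0.6) and Gzmk to Gzma (1.0) overlapped between the groups.

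Genes that mark T cells rose as a whole between the groups, so the members were also read against them. All 20 of 20 T cell markers were called higher in the DB2313 group, with log2 fold changes from 0.32 (Cd3e) to 0.74 (Cd3d) and a median of 0.59, and their share of all counts was 0.303% to 0.306% in the control and 0.488% to 0.489% in the DB2313 libraries. Markers of the T cells that the labels name were thus present. Cd8a, which defines the CD8T cells of the methods, was at 118.5 ± 3.91 and 171.5 ± 10.2 CPM, beside Cd4 at 213.0 ± 2.51 and 294.0 ± 4.58 CPM and Foxp3 at 113.0 ± 1.84 and 139.3 ± 1.22 CPM (SD, n = 3 each), so these levels do not single out CD8T cells. Of the 5 listed CD4 T cell markers, Cd4 and Foxp3 among them, 4 were called higher and 1 lower (Zbtb7b, -0.20), with a median of 0.47. Of 15 macrophage markers 14 were called lower and 1 higher. Their median log2 fold change was -1.21, and their share was 1.04% to 1.06% against 0.361% to 0.370%. Of 9 tested dendritic cell markers 7 were called lower and 1 higher, with a median of -0.52 and a share of 0.290% to 0.293% against 0.188% to 0.189%, and Siglech had no count in any library. Of 6 B cell markers 4 were called higher and none lower, with a median of 0.47 and a share of 0.0289% to 0.0290% against 0.0433% to 0.0444%. In such mixed libraries fewer cells of a type and less RNA per cell cannot be told apart, and the part of these shifts in the members' values was not tested.

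Per 1000 counts of the 20 T cell markers, Gzmb had 27.1, 28.1 and 28.8 counts in the control libraries and 24.4, 24.4 and 23.5 in the DB2313 libraries. Relative to the sum of these markers Gzmb was thus lower in every DB2313 library, the opposite direction from its CPM. Its log2 fold change of 0.37 on the TMM scale lay within the range of the markers themselves (0.32 to 0.74). The share of all genes that were lower in every DB2313 library on this scale was not computed. Gzmc had 3.41, 3.11 and 2.87 counts against 0.834, 1.21 and 0.761, again lower in every DB2313 library. For both genes the two-sided exact permutation p was 0.1, the smallest that 3 against 3 allows, and 0.35 after adjustment over 7 members. Nkg7 (13.2 ± 0.684 and 14.3 ± 1.06), Prf1 (3.50 ± 0.187 and 3.32 ± 0.222), Gzma (0.852 ± 0.135 and 0.786 ± 0.0993), Gzmk and Gzmm overlapped between the groups on this scale (SD, n = 3 each).

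Fitted across all genes with the libraries scaled to the T cell markers, edgeR called 1.14% of genes higher and 77.4% lower, and the median log2 fold change of all genes moved to -0.57. On that scale no member was called higher and 2 were called lower, Gzmb with a log2 fold change of -0.21 (adjusted p of 8.20e-05) and Gzmc with -1.75 (adjusted p of 8.28e-10). Nkg7 was at 0.12 with an interval from -0.02 to 0.25 (adjusted p of 0.101 in edgeR). Prf1 was at -0.08 with an interval from -0.30 to 0.14 (adjusted p of 0.503 in edgeR). Gzmc was called lower on both scales. Its direction on the second follows from the construction, since this scaling subtracts the rise of the markers from every gene and Gzmc was already lower. The rise of Gzmb and Prf1 in CPM was smaller than the median rise of the T cell markers and that of Nkg7 larger.

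**Figure D3:**
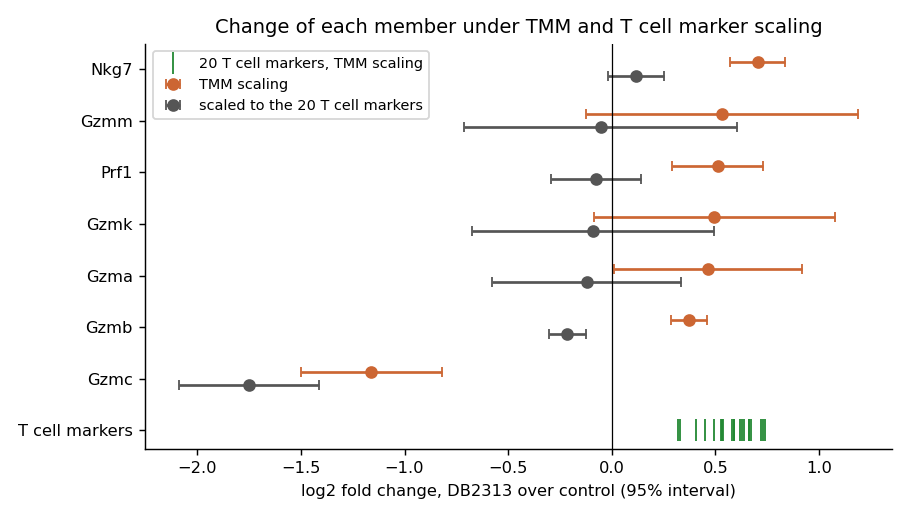
Log2 fold change of each tested member, DB2313 over control (horizontal axis), with its 95% interval, after TMM scaling (orange) and after scaling to 20 T cell markers (grey), and the T cell markers themselves as green ticks on the TMM scale. Gzmb moved from 0.37 to -0.21 between the scalings and Nkg7 from 0.71 to 0.12. Gzmc, already lower under TMM, stayed lower, since scaling to the markers lowers every value.

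Markers of other cells that carry these transcripts were counted too. NK cells express Gzma, Gzmb, Prf1 and Nkg7, and of 9 NK markers 7 were tested and 5 called higher, with a median log2 fold change of 0.79. The NK markers took 0.00194% to 0.00221% of counts in the control and 0.00337% to 0.00389% in the DB2313 libraries, Klra4 and Klra8 averaged below 0.5 CPM in both groups, and Ncr1 was at 2.65 ± 0.391 and 4.97 ± 0.564 CPM (SD, n = 3 each). All 4 gamma-delta T cell receptor genes were called higher, with a median of 0.71. Of 10 tested mast cell and basophil markers 4 were called higher and 4 lower, with a median of 0.04. Their log2 fold changes ran from -5.40 (Tpsb2) to 0.52 (Mcpt8), so this median does not mean that they were unchanged. The part of these cells in the members' values was not tested.

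Gzmb and Gzmc lie at 1 end of a larger cluster of serine protease genes on chromosome 14. It also holds other granzymes and proteases used by mast cells, basophils and neutrophils. Of the 10 other proteases of the cluster that were listed, Gzmg and Gzmn among them, 3 had enough counts for a test. Ctsg, the neutrophil granule protease cathepsin G, had 107.6, 101.7 and 114.5 CPM in the control and 209.0, 204.0 and 198.8 CPM in the DB2313 libraries, a log2 fold change of 0.92 (adjusted p of 1.09e-14 in edgeR), which was 0.33 when scaled to the T cell markers. Of 10 neutrophil markers 9 were called lower and 1 higher, with a median of -1.62. Their share was 0.193% to 0.194% of counts in the control and 0.0724% to 0.0743% in the DB2313 libraries. Ctsg thus rose while most of that list fell, and which cells its counts came from was not tested. Mcpt8, a basophil protease, rose by a log2 fold change of 0.52, and scaling to the T cell markers turned it to -0.06. Cma1, a mast cell chymase, fell by 1.59 on the log2 scale. Genes called higher and lower were thus interspersed along the cluster, with Cma1 and Gzmc lower and Mcpt8, Ctsg and Gzmb higher on the TMM scale.

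**Figure D4:**
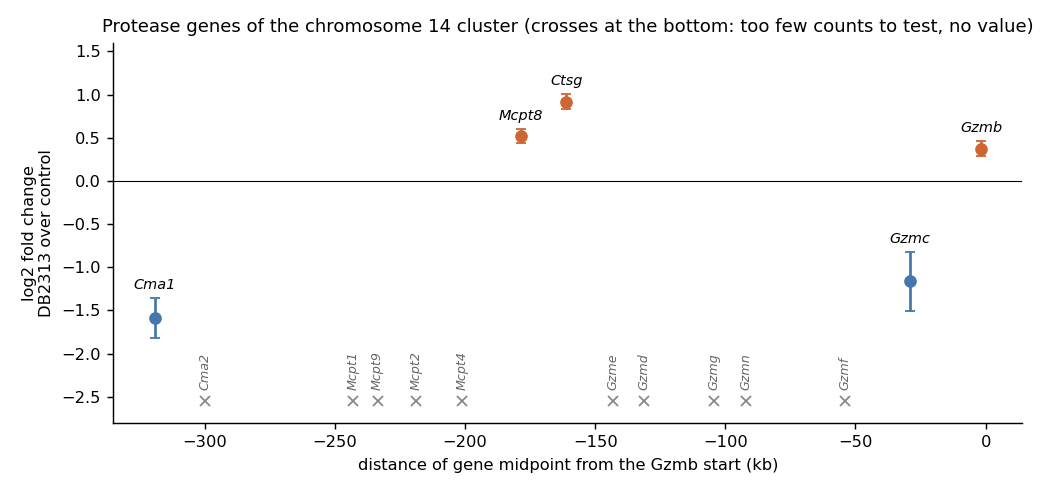
Log2 fold change on the TMM scale with its 95% interval (vertical axis) of the protease genes of the chromosome 14 cluster, by the distance of the gene's midpoint from the Gzmb start in kb (horizontal axis). Gzmc (-1.16) and Gzmb (0.37) lie 24.2 kb apart and differ in direction, a contrast in which Gzmb turned negative when scaled to T cell markers, and crosses mark genes with too few counts for a test.

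Other genes of the granule pathway were examined from 6 lists drawn up by role. Together with the 3 tested cluster proteases they held 71 tested genes, of which 14 were called higher and 34 lower. Over all tested genes 20.8% were called higher and 24.6% lower, shares that also stand beside the counts of each list below. Among 12 genes for cargo packing and granzyme processing, 1 was called higher and 7 lower, with a median log2 fold change of -0.26. Ctsc, the dipeptidyl peptidase that removes the propeptide of granzymes, fell from 792.0 ± 11.1 to 357.6 ± 6.49 CPM (SD, n = 3 each), a log2 fold change of -1.15 (adjusted p of 8.51e-19 in edgeR). Ctsh, another cathepsin, fell by 0.93 and the lysosomal membrane gene Lamp2 by 0.70 on the log2 scale. Ctsw, a cathepsin of cytotoxic lymphocytes, was the higher call, at 0.52, and was at -0.07 when scaled to the T cell markers. Srgn, the proteoglycan that holds granzymes and perforin in the granule, was at 538.7 ± 8.79 and 532.3 ± 9.27 CPM with overlapping groups, a log2 fold change of -0.02 with an interval from -0.08 to 0.05. Scaled to the T cell markers Srgn was called lower, at -0.61 (adjusted p of 1.68e-14 in edgeR). Calr, a chaperone that binds perforin, was the most abundant of the list and fell by 0.17. Ctsc, Ctsh and Lamp2 are also abundant in macrophages, whose markers fell, and the part of that fall in these values was not tested. Nor was it tested for the lower calls in the lists below.

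Of 4 serpins that inhibit granzymes 3 were called lower and none higher, with a median of -0.58. Serpinb9b fell by 1.85, Serpinb6b by 0.73 and Serpinb6a by 0.43 on the log2 scale. Serpinb9, the inhibitor of Gzmb that protects the killer cell itself, was the most abundant, with 194.4 ± 2.94 CPM in control and 201.7 ± 1.37 CPM in DB2313 libraries (SD, n = 3 each). The difference of 0.05 on the log2 scale did not pass the test (adjusted p of 0.216 in edgeR), with library size scaling it was called higher at 0.15, and scaled to the T cell markers it was at -0.53.

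Of 13 genes of granule transport and exocytosis 1 was called higher and 8 lower, with a median of -0.16. Rab7, a small GTPase of late endosomes and the most abundant of the list, fell by 0.70, the fusion protein Stx11 by 0.55 and Snap23 by 0.54 on the log2 scale. The higher call was Sytl2 (0.66), which tethers granules at the membrane, and it was at 0.0711 without a call on the T cell marker scale (adjusted p of 0.699 in edgeR). Of 10 genes whose proteins granzymes cleave 2 were called higher and 3 lower, with a median of 0.06. Gsdme fell by 0.77, while Hmgb2 rose by 0.33 and the most abundant of them, Set, by 0.15. Scaling to the T cell markers turned Hmgb2 to -0.26 and Set to -0.44.

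Of 17 transcription factors and cytokine receptors that act on granzyme and perforin expression 4 were called higher and 8 lower, with a median of -0.13. Eomes, a T-box factor that drives Prf1 and Gzmb, had 13.1, 11.7 and 11.4 CPM in the control and 17.7, 19.3 and 19.7 CPM in the DB2313 libraries, a log2 fold change of 0.64 (adjusted p of 1.07e-05 in edgeR). Scaled to the T cell markers Eomes was at 0.0538 and lost its call (adjusted p of 0.629 in edgeR). Tbx21, the related factor T-bet, was at 13.3 ± 0.880 and 14.8 ± 2.12 CPM with overlapping groups (log2 fold change 0.16, adjusted p of 0.266 in edgeR), at 0.0356 without DB2313 library 1, and at -0.43 when scaled to the T cell markers. Il2rb, the shared IL-2 and IL-15 receptor chain and the most abundant of the list, rose by 0.50, and was at -0.09 on the T cell marker scale. Zeb2 fell by 1.02, Il12rb2 by 0.998, Id2 by 0.71, Prdm1 by 0.48 and Il2ra by 0.15 on the log2 scale, and Il2ra lost its call with library size scaling (-0.0528, adjusted p of 0.168 in edgeR). Macrophage and dendritic cell markers fell in the same libraries, and the part of that fall in these values was not tested.

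Of 12 other effector molecules 4 were called higher and 4 lower, with a median of 0.12. Ccl5, a chemokine that is also stored in T cells, fell from 757.6 ± 17.9 to 306.4 ± 14.3 CPM (SD, n = 3 each), by 1.31 on the log2 scale. The receptor Slamf7 fell by 1.07 and the cytokine Tnf by 0.37. For Ccl5, Slamf7 and Tnf, too, the part played by the fall of macrophage and dendritic cell markers was not tested. Fasl, the ligand of the granule-independent killing pathway, rose from 3.71 ± 0.536 to 6.30 ± 0.862 CPM (SD, n = 3 each), by 0.76 on the log2 scale, and was at 0.18 without a call on the T cell marker scale (adjusted p of 0.372 in edgeR). Ltb, the most abundant of the list, rose by 0.56, and was at -0.03 on the T cell marker scale. Ifng was near 1 CPM in both groups, and its log2 fold change of -0.65 had an interval from -1.47 to 0.17 (adjusted p of 0.190 in edgeR). It was at -1.10 without DB2313 library 1 and -0.33 without DB2313 library 2, neither a call, and on the T cell marker scale it was called lower at -1.24 (adjusted p of 0.00662 in edgeR).

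**Figure D5:**
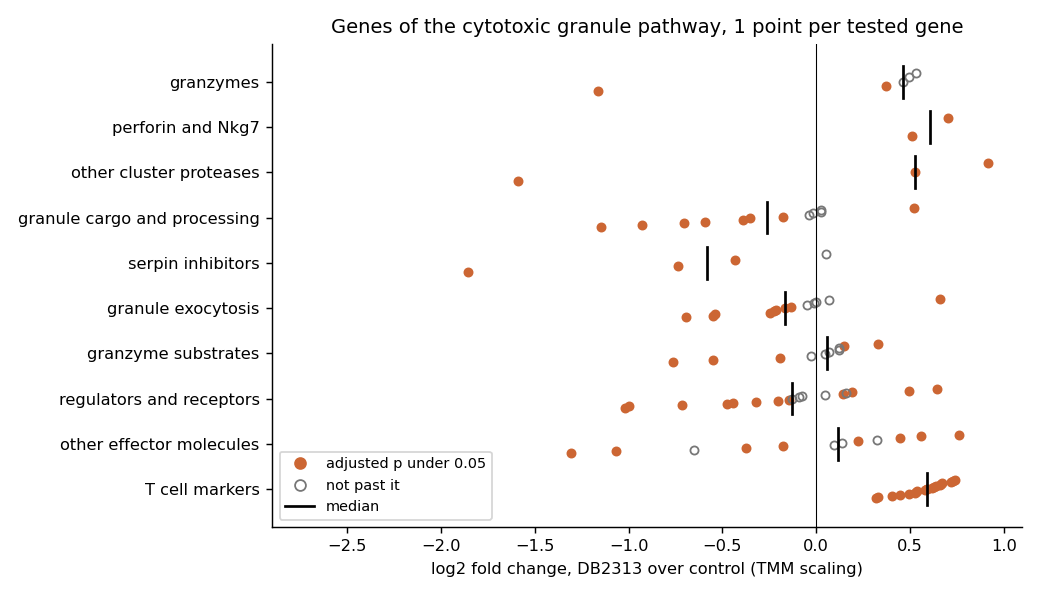
Log2 fold change on the TMM scale, DB2313 over control (horizontal axis), of each tested gene in 10 lists by role, filled where the adjusted p was below 0.05, with a line at each list's median. The medians were 0.47 for granzymes and 0.61 for perforin and Nkg7 against 0.59 for T cell markers and -0.58 for serpin inhibitors, and scaling to the T cell markers lowers all values alike by about 0.59.

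The genes whose profile over the 6 libraries was closest to that of a member were found among 9331 genes that code for proteins and averaged 10 CPM or more, by the root mean square difference of centred log2 CPM. For Gzmb these were Prmt1 (0.0115), Cnp (0.0176) and Rpl9 (0.0192). For Prf1 they were Ddb2 (0.0402), Slfn8 (0.0446) and Zfp395 (0.0474), and for Nkg7 they were Rgcc (0.0320), Tbxa2r (0.0483) and S1pr4 (0.0513). With 6 points in 2 groups, this likeness is mostly that of the fold change.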

How the data were processed

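RNA-seq counts of 6 libraries (3 control, 3 DB2313) were analysed, and columns were matched to samples by their label, with 0 columns unmatched. The authors deposited raw counts per gene without normalization. The paper's methods name LifeScope for alignment and counting, whereas the submitters' processing notes name CASAVA 1.8, HISAT2 2.0.5 and featureCounts 1.5.0-p3, and this conflict was not settled. The genome build, strandedness and the treatment of reads with several matches are not given in the sources used here. Of 54409 genes shared with GENCODE mouse release 21, 98.3% had its GRCm38 coordinates.

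Members and gene lists were chosen with earlier results of these data known. The test was the quasi-likelihood F test of edgeR 4.0.16, run in R 4.3.3 after the package's default filter on low counts and TMM scaling. P-values were adjusted by Benjamini-Hochberg over all tested genes, and standard errors were derived from the fitted change and its test. Scripts were tested on simulated counts. RPKM used the length column of the table. Ratios were compared with two-sided exact permutation tests in scipy 1.17.1, and transcripts were aligned with Biopython 1.88. Libraries of a group differed by more than sampling noise (chi-square per gene 2.54 to 4.00 within and 51.8 to 56.0 between groups). Each was counted as 1 sample, but this spread cannot show whether the libraries came from separate cultures.

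The genes named were all members, in each pathway list the 3 largest called changes that reached 10 CPM in the higher group, the most abundant gene, and the 3 closest profiles of Gzmb, Prf1 and Nkg7. A gene that this rule names is not reported here. Ctsw, Srgn, Sytl2, Eomes, Tbx21, Prdm1, Il2ra, Fasl, Ifng and Tnf were named for their role after their values were seen. Alternatives were DESeq2 1.42.0, its size factors in edgeR, library size, upper quartile and T cell marker scaling, no filter, a minimum of 10 counts per library, a replicate block, leaving out each library, a fold threshold, summed granzyme copies, T cell marker counts as denominator and CPM in place of RPKM.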

Additional observations from a re-analysis of the deposited data

How the results depend on the processing

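Over 99 comparisons of the 7 tested members with an alternative, 91 changed neither direction nor call. Scaling to the T cell markers gave the log2 fold changes -0.21 for Gzmb, -0.078 for Prf1, -0.12 for Gzma, -0.0918 for Gzmk and -0.0534 for Gzmm, each opposite in sign to TMM, and 0.12 for Nkg7, no longer past the threshold. It left 0 members called higher and 2 lower, and the members' share, taken per T cell marker count, was at -0.16 on the log2 scale. Among pathway genes it left 1 called higher and 62 lower, on a scale that called 1.14% of all tested genes higher and 77.4% lower. It turned Mcpt8 to -0.0637, Ctsw to -0.0691, Serpinb9 to -0.53, Hmgb2 to -0.26, Set to -0.44, Il2rb to -0.0933, Tbx21 to -0.43 and Ltb to -0.0318. The sign follows from its construction, since it subtracts the rise of those markers from every gene. Gzma passed the threshold with library size scaling (0.56), which moved the median of all genes to 0.11, and with upper quartile scaling (0.53). With those scalings Srgn was at 0.0772 and 0.0466, and Serpinb9 was called higher at 0.15 and 0.12. Library size scaling ended the call of Il2ra (-0.0528). T cell marker scaling also ended the calls of Eomes (0.0538), Sytl2 (0.0711) and Fasl (0.18) and called Srgn (-0.61) and Ifng (-1.24) lower. The fold threshold left 0 members called higher, and 0 pathway genes higher and 6 lower, beside 1.37% and 5.3% of all tested genes. By CPM without length, 2 members (Gzmc and Prf1) changed rank in the control group. Leaving out each library kept the 4 calls, with ranges of 0.35 to 0.40 for Gzmb, 0.64 to 0.75 for Nkg7, 0.48 to 0.56 for Prf1 and -1.39 to -1.03 for Gzmc. With DESeq2 the same 4 members were called.

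The labels of both groups share the numbers 1 to 3, but same-numbered libraries did not deviate together (correlations of -0.00594, -0.0182 and -0.109 over 9666 genes). With the replicate block the log2 fold changes were 0.37 for Gzmb, 0.70 for Nkg7, 0.51 for Prf1 and -1.17 for Gzmc, with the same calls, and 2912 genes were called higher and 3525 lower, against 3096 and 3667 without it. No library decided a member's call. Depth limits Gzmd, Gzme and Gzmf, which could not be tested, and the wide intervals of Gzma, Gzmk and Gzmm.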
